A study of Mus musculus with 50 samples.

Results

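The chains of cytoplasmic dynein 1 were examined on the Agilent arrays, with Dynlt1b as the member that stood highest in the list of all probes. The members were chosen by gene symbol: a probe was taken when the RefSeq accession in its annotation, or the symbol given in its description, named 1 of 10 genes, and the older symbol Tctex1 was read as Dynlt1b. In this way 17 of 41174 probes were found, for all 10 of the genes, out of 16818 genes that could be named on the array. The set was proposed from the same contrast that is shown here, transgenic against wild-type on Agilent, so the Agilent differences below describe the members and are not evidence for them.

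Gene expression was measured in the hippocampus of 5 wild-type (WT) male C57/BL6j mice and 5 transgenic (TG) male mice with the same background. The TG mice over-express DCLK-short, where DCLK stands for doublecortin-like kinase. According to the study, this form (δC-DCLK-short) arises by alternative splicing of Dclk1 and leaves the kinase constitutively active. The age of the mice, the promoter of the transgene and the cells in which it is active were not given in the sources used here. Both hippocampi of a mouse were pooled, total RNA was extracted with Trizol and amplified, and the cRNA was labelled with Cy3 or Cy5. Each of 10 Agilent arrays held a WT and a TG mouse; arrays 1 to 5 carried WT in Cy3 and TG in Cy5, arrays 6 to 10 the reverse, every mouse was used once in each dye, and the pairs differed between both sets. The RNA is that of a whole tissue, in which fewer cells of a type and less RNA per cell cannot be told apart.

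Cytoplasmic dynein 1 is the motor that carries cargo along microtubules toward their minus ends, which in axons means from the synapse back to the cell body. A pair of heavy chains holds the ATPase and the microtubule-binding stalk, intermediate and light intermediate chains form the cargo-binding base, and the light chains of the Tctex, LC8 and roadblock families sit on the intermediate chains. Dynactin and a set of adaptors and regulators are needed for long runs and for the choice of cargo.

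The direction of all Agilent differences depends on the array labels, and these are in doubt. As labelled, Tmem254a was lower in TG on 10 of 10 arrays, with a log2 ratio of TG over WT of -0.99 ± 0.05 (SE, n = 10), whereas on ABI it was higher in TG by 1.73 ± 0.16 (SE, n = 5 per group). When the single-channel values of the 10 arrays were compared over 33790 present probes, channels of the same mouse had a mean correlation of 0.142 as labelled, and of 0.213 when the labels of arrays 1 to 5 and 6 to 10 were exchanged. The best match on another array was the same mouse for 2 of 10 mice as labelled and for 4 of 10 after the exchange. A part of a larger table given with the study, with 667 genes and 19 channels, was compared as well. For each gene the best correlation with any of the present probes was taken. The median of these was 0.816 as labelled and 0.926 after the exchange. As a maximum over so many probes, such a value is high under either assignment. The labels were kept. An exchange turns the sign of every Agilent difference given here and moves each channel to a mouse of the other genotype. The channels labelled TG4, for example, would be those of WT5. The Agilent values by mouse thus hold only as labelled. The 4 probes of Dclk1, the gene of the transgene, had log2 ratios between -0.08 and -0.06 and none was called, so that they do not settle the labels. All 13 probes of the hippocampal neuron markers were present on all arrays. Of them 1, for the calcium-binding protein Calb1, was called at 0.14 ± 0.03 (SE), beside 7.41% of all probes.

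Arrays 1 and 9, which share the mouse labelled TG4, stood apart: for 7 of the 17 member probes both of them lay outside the range of the other 8 arrays. The SD of the log2 ratios over all probes was 0.321 and 0.384 on them and 0.138 to 0.226 on the others. Without them 4 members were called, all higher in TG, beside 4.9% of all probes. The values of the 7 probes are given with and without these arrays.

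The light chains held all calls among the dynein members. At a false discovery rate (FDR) of at most 0.1, taken with limma over all probes, 5 of the 17 probes were called, against 7.41% of all 41174 probes. As labelled, 4 were higher in TG (Dynlt1b, Dynll1, 1 of 3 probes of Dynll2, and Dynlrb1), against 3.66% of all probes, and 1 was lower (1 of 2 probes of Dynlt3), against 3.76%. With median centring in place of loess 5 were higher and none lower, beside 3.24% of all probes called. None of the 2 heavy chain, 3 intermediate chain and 4 light intermediate chain probes was called, and 5 of the 8 light chain probes were. The median log2 ratio of the 17 probes was -0.07 and their median absolute log2 ratio 0.19, beside 0.00 and 0.04 over all probes. All 17 probes were well above background in both channels on all 10 arrays and none was saturated. With 1 value per mouse no member passed the FDR, as against 24 of all probes. With the mouse as a random block Dynlt1b alone of the members passed it, beside 2.25% of all probes.

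**Figure D1:**
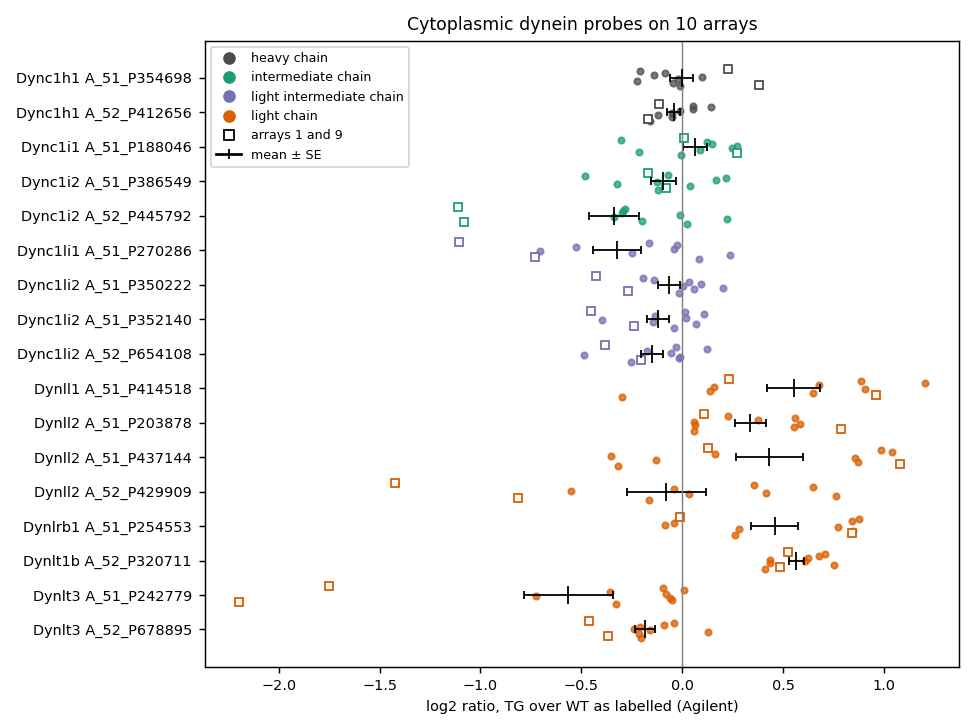
Log2 ratio of TG over WT as labelled (horizontal axis) for each of the 17 probes (rows), with 1 symbol for each Agilent array and the mean ± SE over 10 arrays in black. Dynlt1b lies between 0.41 and 0.75 on all arrays, whereas open squares, the arrays 1 and 9 of the mouse labelled TG4, lie far below the others for a probe each of Dynlt3, Dynll2 and Dync1i2.

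Dynlt1b encodes a light chain of the Tctex family, which binds the intermediate chain and also single cargo proteins. Its raw signal in the WT channel ranged from 418 to 885 over the 10 arrays, with a median of 535, and in the TG channel from 651 to 1735, with a median of 862. The log2 ratio of TG over WT was 0.52, 0.71, 0.68, 0.62 and 0.44 on arrays 1 to 5 and 0.61, 0.43, 0.75, 0.49 and 0.41 on arrays 6 to 10. It was thus above 0 on every array in both dye orientations; 2.11% of all probes had the same sign on all 10 arrays. The mean was 0.57 ± 0.12 (SD, n = 10), or 1.48-fold. Its FDR was 1.18e-04, and the probe ranked 3 of all probes by p value.

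By mouse, the log2 signal of Dynlt1b was 9.45 in WT1, 9.30 in WT3, 8.93 in WT4, 9.08 in WT5 and 9.32 in WT6. In the TG mice it was 9.65 in TG1, 9.90 in TG2, 9.62 in TG3, 9.85 in TG4 and 9.87 in TG5. The groups of mice as labelled did not overlap, which held for 2.08% of all probes. The mean was 9.21 ± 0.21 (SD, n = 5) in WT and 9.78 ± 0.13 (SD, n = 5) in TG. With 1 value per mouse the FDR was 0.141, and with the mouse as a random block 0.00143. Without both arrays of TG4 the log2 ratio was 0.58.

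Which copy of the gene the Dynlt1b probe reads is uncertain. The files place it at chr6:136109858-136109917 and name no genome build. RefSeq (GRCm38.p6) lists Dynlt1b on chromosome 17, beside the copies Dynlt1a, Dynlt1c and Dynlt1f on the same chromosome, and a pseudogene of the family, Dynlt1-ps1, on chromosome 6. For the other 9 members the chromosome in the files is the one that RefSeq gives. No probe on the array was named for the other copies or for the pseudogene, so a signal of theirs in this probe was not tested.

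On ABI, a one-color platform with 1 mouse per array, Dynlt1b was the only member with a probe that could be named, as 311 of 33012 probes could. Its raw signal was 40779, 40252, 40268, 40291 and 38116 in WT1 to WT5. In TG1 to TG5 it was 22887, 31276, 31374, 21449 and 21835, so every TG mouse lay below every WT mouse on the raw scale. Raw signals also hold differences between arrays, and the share of all ABI probes without overlap on the raw scale was not computed. After normalization with vsn the means were 15.2 ± 0.162 (SD, n = 5) in WT and 14.8 ± 0.209 (SD, n = 5) in TG, and the groups overlapped slightly, with 14.988 in WT3 and 15.004 in TG2. Groups without overlap on this scale were found for 0.997% of all ABI probes. The difference of TG minus WT was -0.45 ± 0.14 (SE), with an FDR of 0.999 by limma, where the probe ranked 201 by p value. An exact two-sided permutation test over 252 splits of the mice gave p = 0.0159, where the smallest possible value is 0.00794. That p value is not adjusted for the number of probes. Most of the mice are those in which Dynlt1b was chosen on Agilent, so it is not an independent test. Over all ABI probes 0.00909% were called. The sign on ABI was thus the opposite of that on Agilent as labelled, and the same as on Agilent after the exchange of labels described above. The difference between the platforms was not itself tested. Of these platforms, WT2 was on ABI alone and WT6 on Agilent alone. Per the methods of the study, the ABI arrays were hybridized in batches on different days whose signal distributions differed; which array was in which batch was not given in the sources used here, so its part in the ABI values of Dynlt1b and Tmem254a was not tested.

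**Figure D2:**
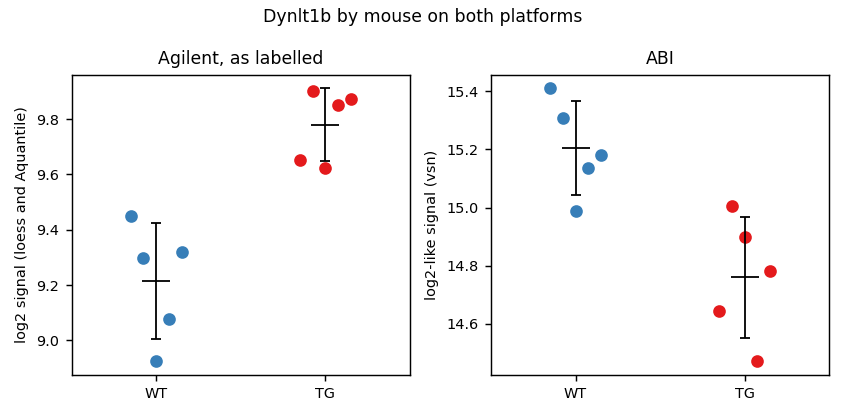
Dynlt1b signal by mouse (points) with mean ± SD (n = 5 per group), on Agilent as labelled (left, log2 signal) and on ABI (right, log2-like vsn signal). The WT mice of the platforms are only partly the same. The TG mice are above the WT mice on Agilent, with means of 9.78 and 9.21, and mostly below them on ABI, with means of 14.8 and 15.2.

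Dynlt3, the second Tctex light chain, lay in the other direction on both of its probes. The one that was not called rested largely on 1 mouse. For its probe at chrX:7895395-7896037 the log2 ratio ranged from -2.20 to 0.01 with a median of -0.21. The values below -1 were -1.75 on array 1 and -2.20 on array 9, which share the mouse labelled TG4, and the other 8 arrays lay between -0.72 and 0.01. The mean was -0.56 ± 0.22 (SE, n = 10) with an FDR of 0.184, and without both arrays of TG4 it was -0.21. The probe at chrX:7893750-7893809 was called at -0.19 ± 0.05 (SE; FDR 0.0631), below 0 on 9 of 10 arrays. TG4 was again the lowest mouse, at 10.17 against 10.51 to 10.58 in the other TG mice and 10.47 to 10.80 in the WT mice, and without its arrays the value was -0.13 with an FDR of 0.148.

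The LC8 light chain Dynll1, a small hub protein that binds many partners besides dynein, had raw signals of 1458 to 6650 in the WT channel (median 2641) and 3052 to 9714 in the TG channel (median 4655). Its log2 ratio was 0.23, 0.89, 1.20, 0.68 and 0.16 on arrays 1 to 5, and 0.91, 0.14, 0.65, 0.96 and -0.30 on arrays 6 to 10. The mean was 0.55 ± 0.13 (SE, n = 10) with an FDR of 0.0503, above 0 on 9 of 10 arrays. By mouse the spread was in WT: WT3 stood at 11.14, WT4 at 11.24, WT5 at 11.55, WT6 at 11.97 and WT1 at 12.10, while the 5 TG mice lay between 12.02 and 12.26. The SD was 0.43 in WT and 0.09 in TG, and the groups overlapped.

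Dynll2, the other LC8 chain, was read by 3 probes that disagreed. The probe at chr11:87709469-87709528 was the called one, at 0.34 ± 0.08 (SE, n = 10; FDR 0.0432), and was above 0 on all 10 arrays, from 0.06 to 0.79. The probe at chr11:87707655-87707714 had a larger mean, 0.43 ± 0.17 (SE), but ranged from -0.35 to 1.08 and was not called, with an FDR of 0.179. The probe at chr11:87707886-87707945 had a mean of -0.08 ± 0.19 (SE; FDR 0.904), with -1.43 on array 1 and -0.82 on array 9, and 0.18 without both arrays of TG4. When the 3 probes were averaged before the fit, Dynll2 stood at 0.23 ± 0.12 (SE) and was not called, with an FDR of 0.334.

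Dynlrb1, a light chain of the roadblock family, was called at 0.46 ± 0.12 (SE, n = 10; FDR 0.0585). Its log2 ratio was -0.01, 0.88, 0.84, -0.04 and -0.08 on arrays 1 to 5 and 0.77, 0.28, 0.84, 0.84 and 0.26 on arrays 6 to 10, so that the arrays lay either near 0.8 or below 0.3. The same WT mice as for Dynll1 were low, with 10.19 in WT3, 10.30 in WT4 and 10.47 in WT5, against 10.75 in WT1 and 10.85 in WT6. The TG mice were between 10.87 and 11.06, and the mice as labelled did not overlap, which held for 2.08% of all probes. With 1 value per mouse the FDR of Dynlrb1 was 0.286. Without both arrays of WT3, of WT4, of WT5 or of TG3, the count of called members fell from 5 to 1. The share of all probes called fell as well, from 7.41% to 0.889%, 0.685%, 2.01% and 2.56%.

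**Figure D3:**
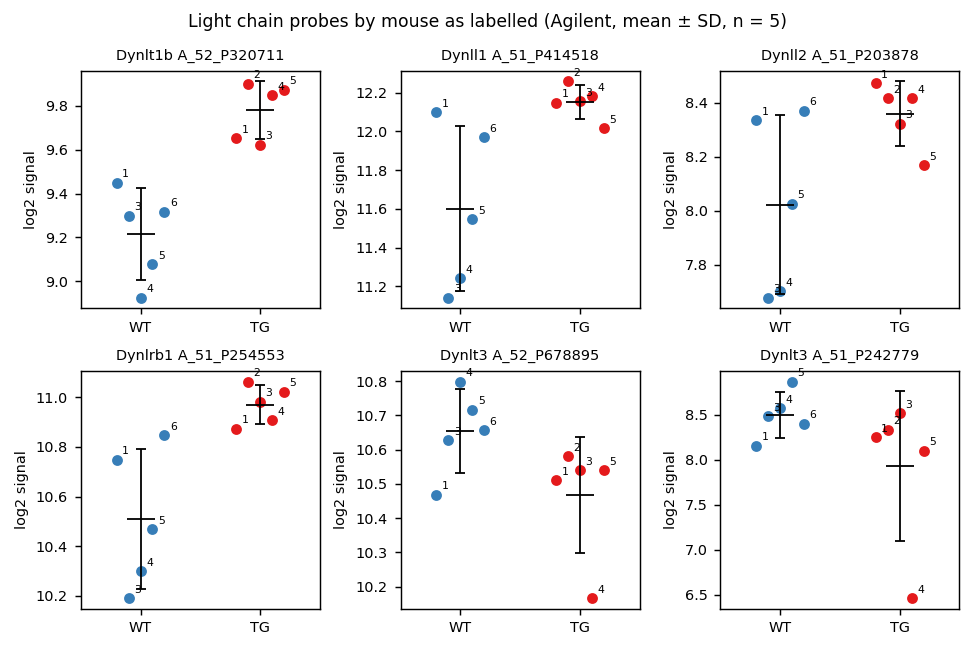
Log2 signal by mouse as labelled (points, with the mouse number) and mean ± SD (n = 5 per group) for 6 light chain probes on Agilent. WT3, WT4 and WT5 are the lowest mice for Dynll1, Dynll2 and Dynlrb1, and TG4 is the lowest for both Dynlt3 probes. The WT and TG mice do not overlap for Dynlt1b and Dynlrb1, as for 2.08% of all probes.

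For Dynll1 and Dynlrb1, which have a promoter in the RefSeq table and are called higher in TG as labelled, the window from 250 bases before to 50 bases after the start of the gene is shown, with that of the heavy chain gene Dync1h1, whose ratio stayed near 0, for comparison (GRCm38.p6, read 5′ to 3′ on the strand of the gene). A promoter was found for 7 of the 10 members, Dynlt1b not among them, and for Dynlrb1 the first of its 2 windows is shown; the window of Dynlt3, called lower on 1 of its probes, is not printed and held 2 GC boxes. Capitals mark matches on either strand to GGGCGG (a GC box), CCAAT or TGACGTCA (a cAMP response element).
Dynll1: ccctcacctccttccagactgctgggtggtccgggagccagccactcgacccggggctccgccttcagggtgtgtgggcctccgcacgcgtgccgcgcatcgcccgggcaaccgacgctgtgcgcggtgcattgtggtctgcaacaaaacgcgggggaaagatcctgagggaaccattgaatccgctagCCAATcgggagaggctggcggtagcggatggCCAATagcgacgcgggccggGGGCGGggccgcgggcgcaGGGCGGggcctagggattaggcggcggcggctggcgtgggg
Dynlrb1: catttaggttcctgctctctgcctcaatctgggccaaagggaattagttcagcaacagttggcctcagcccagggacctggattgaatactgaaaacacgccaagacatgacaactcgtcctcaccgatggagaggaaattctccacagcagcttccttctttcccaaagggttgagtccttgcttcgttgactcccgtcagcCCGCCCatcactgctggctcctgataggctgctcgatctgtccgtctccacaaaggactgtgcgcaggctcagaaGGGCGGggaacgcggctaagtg
Dync1h1: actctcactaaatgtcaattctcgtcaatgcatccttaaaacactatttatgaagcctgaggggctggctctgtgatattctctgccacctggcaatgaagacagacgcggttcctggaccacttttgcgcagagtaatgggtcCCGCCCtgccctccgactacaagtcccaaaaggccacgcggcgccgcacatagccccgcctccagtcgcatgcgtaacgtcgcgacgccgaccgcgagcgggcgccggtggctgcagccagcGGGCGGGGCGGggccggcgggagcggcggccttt
The windows lie at chr5:115300941-115301240 on the minus strand, chr2:155236283-155236582 on the plus strand and chr12:110601145-110601444 on the plus strand. The GC box occurred 2 times in Dynll1, 2 times in Dynlrb1 and 3 times in Dync1h1, where 2 of the matches overlap, and 35.7% of all 32851 windows held it. CCAAT occurred 2 times in Dynll1 and in neither of the others, beside 37.4% of all windows. The letters of the cAMP response element were not in these 3 windows, and 1.8% of all windows held them.

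The heavy chain Dync1h1, which holds the motor domain, had a log2 ratio of 0.00 ± 0.06 (SE, n = 10; FDR 0.989) at chr12:106141921-106141980 and of -0.04 ± 0.03 (SE; FDR 0.568) at chr12:106131559-106131618. On the first probe arrays 1 and 9 were the highest, at 0.23 and 0.38, and the other 8 lay between -0.22 and 0.10, with a mean of -0.08 without TG4. The second probe was dim, with raw signals of 60.4 to 120 in the WT channel, and ranged from -0.17 to 0.14.

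The intermediate chains, which link the motor to dynactin, were not called. Dync1i1, the isoform found mainly in neurons, was at 0.06 ± 0.06 (SE, n = 10; FDR 0.652), with 10.49 to 10.55 in the WT mice and 10.46 to 10.78 in the TG mice. The 2 probes of Dync1i2, the more widely expressed isoform, stood at -0.09 ± 0.06 and -0.34 ± 0.12 (SE). The second of them had -1.11 on array 1 and -1.08 on array 9, with -0.34 to 0.22 on the other 8 arrays, and TG4 at 8.73 lay below the 9.61 to 9.76 of the other TG mice. Without both arrays of TG4 it was at -0.15.

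The light intermediate chains, which bind the adaptors of cargo, were read by 4 probes, and none was called. Dync1li1 was at -0.32 ± 0.12 (SE, n = 10; FDR 0.167) and ranged from -1.10 on array 1 to 0.24 on array 8. TG4 was the lowest mouse, at 7.87 against 8.71 to 9.08 in the other TG mice and 8.69 to 9.35 in the WT mice, and the mean was -0.17 without both of its arrays. The 3 probes of Dync1li2 were at -0.07, -0.12 and -0.15, each with an SE of 0.06, and their arrays lay between -0.49 and 0.20. Without both arrays of TG4 they were at 0.01, -0.06 and -0.11.

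Over the 10 arrays the members fell into sets that went up and down together; the arrays share mice, so the correlations are descriptive. Dynll1 and a Dynll2 probe had a Pearson correlation of 0.912 in their log2 ratios, that Dynll2 probe and Dynlrb1 of 0.892, and Dynll1 and Dynlrb1 of 0.702. Another set held Dynlt3, Dync1i2 and the light intermediate chains, with 0.904 between a Dynlt3 and a Dync1i2 probe and 0.921 between Dync1li1 and a Dync1li2 probe, and it shares the low values of arrays 1 and 9. The first Dync1h1 probe described above had a correlation of -0.859 with the same Dynlt3 probe, and the second of 0.567. Probes of 1 gene did not always go together. The 2 probes of Dync1h1 had a correlation of -0.522 with each other, and the 2 of Dync1i2 of 0.011. The correlations of Dynlt1b with the other member probes ran from -0.539, for Dync1i1, to 0.736, for a Dynll2 probe. Outside the members, the genes with the highest correlation to Dynlt1b were Sox8 at 0.897, Wdr27 at 0.893, Nkx2-5 at 0.880, Ift20 at 0.878 and Tmem170 at 0.877, taken from 20781 candidate probes. They are the highest of that many over only 10 arrays. Whether unrelated probes would reach such values was not tested. Of these 5 genes Ift20 alone, which encodes a protein of the intraflagellar transport machinery, was called, beside 7.41% of all probes. Its log2 ratio was 0.22, with an FDR of 0.0941.

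**Figure D4:**
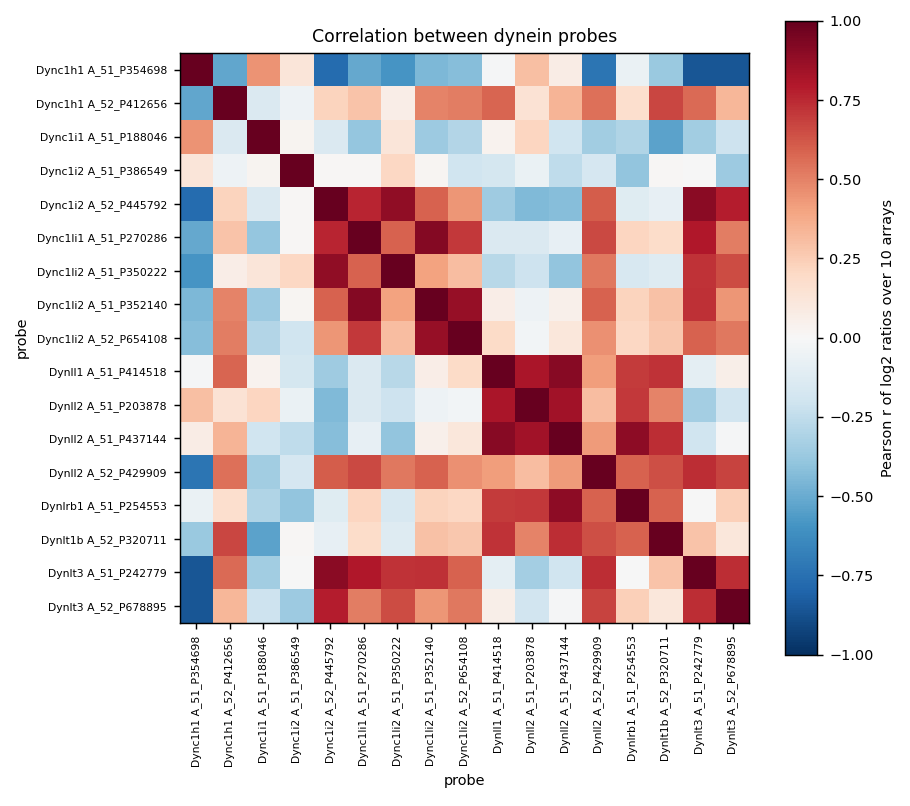
Pearson correlation of the log2 ratios over 10 arrays (color, from -1 to 1) between the 17 probes (both axes). Dynll1, the Dynll2 probe A_51_P437144 and Dynlrb1 form a red block, and Dync1h1 A_51_P354698 is blue against both Dynlt3 probes, at -0.859 and -0.852.

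Among the partners of dynein, the dynactin list had 2 of 15 probes called, both higher in TG as labelled, beside 7.41% of all probes. With the mouse as a random block neither passed, with an FDR of 0.134 and 0.146. Dctn3, the small p24 subunit of the shoulder, stood at 0.42 ± 0.10 (SE, n = 10; FDR 0.0468), from -0.09 to 0.88, and Dctn6, a subunit of the pointed end, at 0.19 ± 0.05 (SE; FDR 0.0672). Dctn1, the large subunit that binds microtubules and the intermediate chain, was at 0.23 with an FDR of 0.175. The median of the list was -0.01.

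The list of regulators and adaptors had 28 probes, of which 1 was called higher and 4 lower, beside 3.66% and 3.76% of all probes. With the mouse as a random block none of them passed. Hook1, an adaptor of endosomes, was at -0.51 ± 0.13 (SE, n = 10; FDR 0.0644) on 1 of its probes, from -1.42 to 0.00, and at -0.30 without both arrays of TG4. The other Hook1 probe was at -0.04 and not called. Nde1 and Ndel1, which bind dynein together with Lis1, were at -0.10 ± 0.03 and -0.19 ± 0.06 (SE), and Trak2, an adaptor of mitochondria, at -0.18 ± 0.05 (SE). Spdl1, the kinetochore adaptor spindly, was at 0.11 ± 0.04 (SE). Ndel1, Trak2 and Spdl1 each had another probe that was not called, at -0.32, -0.02 and 0.02. Pafah1b1, the gene of Lis1, was at 0.23 with an FDR of 0.245. None of the 9 probes of other cytoplasmic dynein chains and none of the 15 probes of axonemal dyneins was called, with medians of 0.03 and 0.00. Without both arrays of WT3, of WT4, of WT5, of TG2, of TG3 or of TG5 none of the probes of these 4 lists was called. Of all probes only 0.889%, 0.685%, 2.01%, 2.48%, 2.56% and 1.97% were called in these fits. Without the arrays of TG4 3 list probes were called, all lower in TG, beside 4.9% of all probes. The markers of ependyma, choroid plexus and thalamus had 5, 7 and 8 probes, all present and none called; their summed log2 level ranged from 9.33 to 9.43 in WT and 9.37 to 9.55 in TG for ependyma, from 9.79 to 11.004 and 9.57 to 11.007 for choroid plexus, and from 10.36 to 10.51 and 10.20 to 10.50 for thalamus. Their part in the values of the members was not tested.

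**Figure D5:**
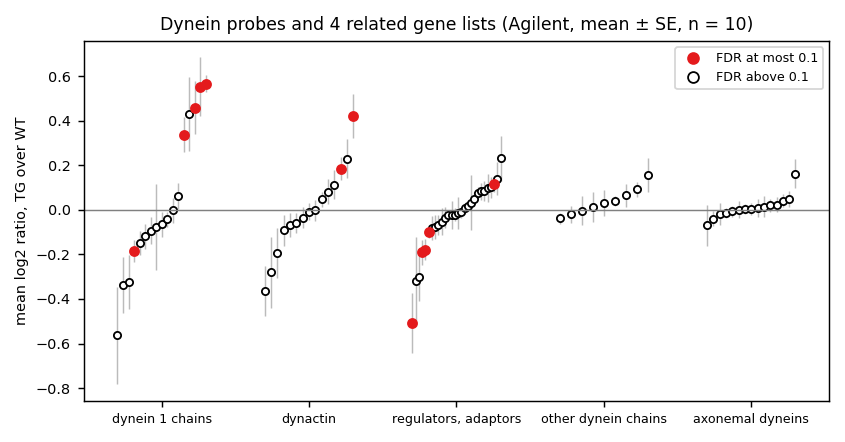
Mean log2 ratio of TG over WT as labelled (vertical axis, ± SE, n = 10 arrays) for each probe of the dynein 1 chains and of 4 related lists, ordered by value within a list. Filled red points passed the FDR of 0.1: 5 of 17, 2 of 15, 5 of 28, 0 of 9 and 0 of 15.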

How the data were processed

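Agilent values were deposited as scanner output: per the file headers, the intensity of every spot in both dyes as mean and as median over its pixels, the local background, quality flags and a log10 ratio of both dyes that the scanner software had corrected and normalized. For ABI, the authors deposited raw signal intensities without normalization. Agilent spots were normalized here by loess within arrays without background correction, with control spots at weight 0, and spots of one probe were averaged. Single-channel values were obtained with Aquantile normalization. ABI signals were normalized with vsn, programmed here, with a trimming quantile of 0.9. Linear models were fitted with limma 3.58.1 (R 4.3.3, statmod 1.5.0): an intercept for the 10 Agilent log ratios, and the genotype for ABI. The Benjamini and Hochberg adjustment ran over the probes of a platform, with an FDR of 0.1 as the limit and no filter. A present probe exceeded, in both dyes of each array, the level below which 95% of the 314 negative control spots lay. Of the Agilent probes 80.1% to 88.4% were well above background, and the number of arrays limits the precision. Both arrays of a mouse were treated as separate observations.

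Of the probes 23415 could be named, 22214 of them by accession. The genes named are the members, Dclk1, Tmem254a as a check of the labels, the called probes of each list (at most 5), and the 5 genes most like Dynlt1b; Dctn1, Pafah1b1 and the second probes of Hook1, Ndel1, Trak2 and Spdl1 were added after their values were seen. The members and lists were chosen with earlier results of these data known. On ABI, mice with the same number did not deviate together in all pairs, so the numbers were not taken as pairs. Illumina columns, named by chip and position, were not used here, and the AFF and LGTC samples were not analysed here. The scripts were tested on simulated data.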

Additional observations from a re-analysis of the deposited data

How the results depend on the processing

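The log2 ratio of Dynlt1b passed the FDR under 35 of 37 alternatives. With 1 value per mouse it was 0.57 with an FDR of 0.141, and with 1 value per mouse after the exchange of arrays 1 to 5 with 6 to 10 it was -0.57 with an FDR of 0.120. Its FDR ranged from 7.57e-05 to 0.141. The exchange, which turns each sign by construction, gave 0.19 for the called Dynlt3 probe, -0.55 for Dynll1, -0.34 for the called Dynll2 probe, -0.46 for Dynlrb1, -0.42 for Dctn3, -0.19 for Dctn6, 0.18 for Trak2, 0.51 for Hook1, 0.098 for Nde1, 0.19 for Ndel1 and -0.11 for Spdl1.

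The count of 5 called members and that of 7 called probes in the related lists depended on the model. At an FDR of 0.05 the counts were 2 members and 1 list probe. They were 3 and 1 for intensities without a replicate block, that is without the array term, and 1 and 0 with the mouse as a random block. With 1 value per mouse they were 0 and 0, both as labelled and after the exchange. They were 2 and 3 with the arrays of WT in Cy3 alone, and 2 and 4 with those of TG in Cy3 alone. For the related lists alone, the count was 2 with median centring and 4 with the scanner software's log ratio. Leaving out 1 array or both arrays of a mouse gave 1 to 5 members and 0 to 6 list probes. Without array 3 or 6 a single member, Dynlt1b, was called, and without array 2, 8 or 9 there were 3. Without TG1 or TG2 2 members were called, and without TG5 3. The loss of array 2, 3 or 6 left no list probe called, and so did that of WT3, WT4, WT5, TG2, TG3 or TG5. Median centring also called 5 members, all higher in TG: the Dynlt3 probe was lost (FDR 0.729) and the Dynll2 probe A_51_P437144 gained (FDR 0.0928), and the cause was not tested.

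For Dynlt1b on ABI, the difference of TG minus WT stayed below 0 and not called under every alternative, from -0.51 to -0.37. With the mouse number as a replicate block it was -0.45 with an FDR of 0.999; the correlations of deviations within numbers ran from -0.238 to 0.366, so the numbers were not read as pairs. For Agilent, a block for slide or scan date could not be fitted, since every array has its own slide and all share a scan date. For ABI, the hybridization batch of an array was not given in the sources used here, so no batch term was fitted. The dim probes, such as the second of Dync1h1, limit what can be seen at low signal.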

Other observations

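A further 10 probes carry a description of a cytoplasmic dynein chain but no symbol, and stood outside the members; they were looked at after the values were known. None was called. A probe described as dynein light chain 1, the name of Dynll1, had a log2 ratio of 0.05 ± 0.06 (SE, n = 10; FDR 0.749), from -0.14 to 0.53, against 0.55 for the Dynll1 probe. The probe nearest to the limit, of a clone described as a cytoplasmic dynein heavy chain, was at -0.17 ± 0.05 (SE; FDR 0.107). Both were present on all arrays.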
